A study of Arabidopsis lyrata and Arabidopsis thaliana with 9 samples.

Results

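SWEET genes encode sugar uniporters of the plasma membrane and the vacuole membrane, built from a pair of MtN3/saliva helix bundles, which let glucose, fructose or sucrose pass down its own gradient. In flowers they are known for feeding developing pollen, for nectar secretion and for passing sucrose from source cells to the phloem or to seeds. The family falls into 4 clades. Clades I and II mostly carry hexoses, clade III carries sucrose, and clade IV sits in the vacuole membrane.

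The genes described here are the 10 SWEET genes SWEET1, SWEET5, SWEET7, SWEET8, SWEET9 and SWEET11 to SWEET15, chosen by locus among the 27176 gene models counted for Arabidopsis thaliana. Each matched 1 counted model, and the other 7 genes of the 17-gene family serve as their comparison. RNA came from inflorescences of wild-type Col-0 plants, taken after the flowering stem had grown out, from plants grown in a greenhouse in long days. There were 3 replicate libraries of this kind in a series of 9 libraries in 3 groups. The A. lyrata groups carry numeric gene identifiers that name no SWEET gene and were not used here, so there is 1 group and no contrast between conditions. The series text calls the replicates biological; the sources used here do not give the number of plants behind each.

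Libraries 1, 2 and 3 held 6263918, 14004158 and 6330211 counts. Levels are CPM, counts per 1000000 counts of a library, as mean ± SD over the 3 libraries (n = 3), and levels of SWEET genes and of other sugar genes are compared with each other as CPM per kb of the counted transcript. For each marker list the gene with the most CPM is named, a measure that also grows with transcript length. Of 8 floral identity genes, 7 stood at 10 CPM or more, with the most CPM in SEP3 at 267 ± 9.76 CPM. Of 8 seed storage genes, 5 had no count and SESA4 had the most CPM at 2.15 ± 0.342 CPM. Of 5 root genes 2 had no count, and COBL9 had the most CPM at 6.09 ± 0.632 CPM. In RNA of whole inflorescences, fewer cells of a type and less RNA per cell cannot be told apart.

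Sequence set the clade III genes apart from the others. Over the 45 pairs of the 10 proteins, translated from the TAIR10.1 coding sequences, identity ranged from 29.4% to 83.8% with a median of 35.4%. The closest pair was SWEET11 and SWEET12, at 83.8% of residues and 80.4% of coding bases, followed by SWEET13 and SWEET14 at 71.1% and 77.3%. The 15 pairs within clade III had a median of 45.9%, and the 24 pairs of a clade III protein with one of clade I or II a median of 31.5%. SWEET15 reached at most 48.0% with another of the 10, against SWEET12.

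**Figure D1:**
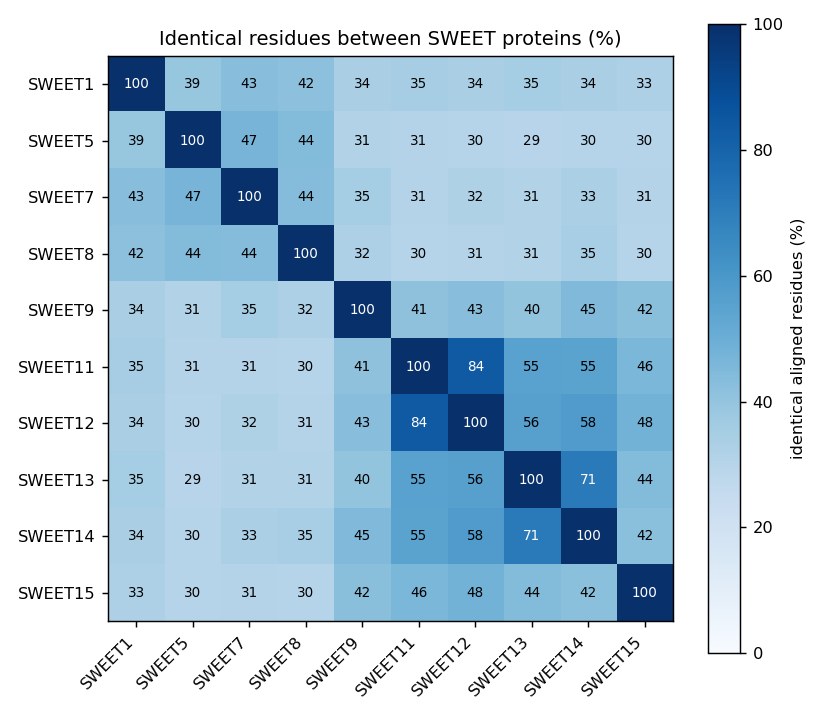
Each cell gives the percent of aligned residues that are identical between a pair of the 10 SWEET proteins, translated from the TAIR10.1 coding sequences. SWEET11 with SWEET12 (83.8%) and SWEET13 with SWEET14 (71.1%) stand out, and SWEET1, SWEET5, SWEET7 and SWEET8 form a block apart from clade III.

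The difference between genes can be read in the 90-base stretch of coding sequence most alike over all 10 genes, chosen as the gap-free stretch inside 1 coding exon with the highest mean identity (66.2%). Of the 90 bases, 31 are the same in all 10 genes. The stretch is shown for the 2 closest pairs, for the most abundant gene (SWEET1) and for SWEET5 and SWEET9, whose levels differed most between libraries together with SWEET14. Sequences run 5′ to 3′ on the coding strand, from RefSeq's TAIR10.1 genome, and capitals mark bases that differ from SWEET13. SWEET14 differs from SWEET13 at 9 bases, SWEET12 at 26, SWEET11 at 27, SWEET9 at 28, SWEET1 at 32 and SWEET5 at 42. SWEET11 and SWEET12 differ from each other at 7.
SWEET13, chr5:20666022-20666111, minus strand: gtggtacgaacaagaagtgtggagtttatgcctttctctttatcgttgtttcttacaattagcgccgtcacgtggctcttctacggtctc
SWEET14, chr4:12855288-12855377, minus strand: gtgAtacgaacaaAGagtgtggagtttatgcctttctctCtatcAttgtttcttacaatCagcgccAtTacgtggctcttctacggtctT
SWEET11, chr3:18053672-18053761, minus strand: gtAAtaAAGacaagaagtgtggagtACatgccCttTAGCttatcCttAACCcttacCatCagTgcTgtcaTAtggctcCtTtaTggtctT
SWEET12, chr5:7972765-7972854, minus strand: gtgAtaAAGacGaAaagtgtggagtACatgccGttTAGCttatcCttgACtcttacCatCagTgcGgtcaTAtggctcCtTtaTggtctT
SWEET9, chr2:16307134-16307223, minus strand: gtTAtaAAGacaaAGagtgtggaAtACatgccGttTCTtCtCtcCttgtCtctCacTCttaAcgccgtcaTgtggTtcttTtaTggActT
SWEET1, chr1:7512318-7512407, minus strand: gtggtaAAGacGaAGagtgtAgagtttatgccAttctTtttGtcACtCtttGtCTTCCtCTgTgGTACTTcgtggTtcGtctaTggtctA
SWEET5, chr5:25230458-25230547, minus strand: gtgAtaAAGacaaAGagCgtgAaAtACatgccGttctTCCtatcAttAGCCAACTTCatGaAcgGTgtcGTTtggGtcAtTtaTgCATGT

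These similarities leave the reads of the 10 genes separable at the lengths tried. The longest run of coding bases shared by any pair was 29, in SWEET11 and SWEET12: gtcatatggctcctttatggtcttgctct, at chr3:18053667-18053695 and chr5:7972760-7972788, both on the minus strand. SWEET13 and SWEET14 shared at most 24 bases. Of all 36-base windows of the 10 transcripts, only windows of SWEET1 were found in another counted model on either strand, 17 of 1189, and these lay where SWEET1 overlaps SCL1 (AT1G21450), a gene on the opposite strand. With 100-base windows none was shared. SWEET5 encloses a microRNA gene, MIR420, on its own strand. Neither the read length nor whether counting used strand is stated, so reads from the SWEET1 and SCL1 overlap cannot be told apart.

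Of the 10 genes, 5 had a mean of 10 CPM or more (48.4% of all 27176 models did) and 9 had a mean of 1 CPM or more (68.6% of all models did). Together they held 186, 214 and 184 CPM in libraries 1, 2 and 3, a sum of 195 ± 16.5 CPM. Their median level was 8.47 CPM per kb, and that of all models was 5.89 CPM per kb. The latter counts the 16.6% of models with no counts. Among models at 1 CPM or more, to which 9 of the 10 genes belong, the median was 12.6 CPM per kb.

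SWEET1, a glucose carrier of the plasma membrane and the only clade I gene among the 10, was the most abundant SWEET gene of the inflorescence. It stood at 95.3, 104 and 97.2 CPM in libraries 1, 2 and 3, a mean of 98.8 ± 4.52 CPM. The 3 libraries lay close together, and their 95% counting intervals overlapped. Per length it reached 80.7 ± 3.69 CPM per kb, above 94.9% of models, and made up 27.8% of the summed per-length level of the 17 SWEET genes. SWEET1 (AT1G21460) has 6 exons and lies at chr1:7511750-7513481 on the minus strand of TAIR10.1, the build of all positions here.

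The clade II genes SWEET5, SWEET7 and SWEET8 had like mean levels but unlike spreads. SWEET8, also called RUPTURED POLLEN GRAIN1, is a glucose carrier needed for the patterning of the pollen wall (AT5G40260, chr5:16089678-16091797, plus strand). It stood at 13.1, 12.3 and 12.95 CPM, the narrowest relative spread of the 10, with a coefficient of variation of 3.39%. The tapetum nourishes pollen and lays down its wall, and 12 of its 14 marker genes stood at 10 CPM or more. Their summed level was 2870 to 3126 CPM over the libraries, and GRP17, a pollen coat protein gene, had the most at 1780 ± 131 CPM. Set against library 3, the level in library 2 was the higher for 6 of the 14 tapetum markers, and the level in library 1 for 3. Among all models at 1 CPM or more these shares were 48.7% and 50.2%. SWEET7, a hexose carrier (AT4G10850, chr4:6674894-6676981, plus strand, 5 exons), stood at 15.3, 16.1 and 13.1 CPM. Its libraries overlapped within counting error as well.

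SWEET5, named VEX1 for its expression in the vegetative cell of pollen, varied more (AT5G62850, chr5:25229938-25231844, minus strand). It held 53, 290 and 67 counts in libraries 1, 2 and 3, which is 8.46, 20.7 and 10.6 CPM. Library 2 stood 1.96-fold above the next, and its counting interval (18.4 to 23.2 CPM) overlapped neither that of library 1 (6.34 to 11.1 CPM) nor that of library 3 (8.20 to 13.4 CPM). A lead of library 2 this large over both others was found in 0.22% of the 18654 models at 1 CPM or more. Library, direction and size of this lead were read from SWEET5 itself, so the share describes it and tests nothing. Without library 2 the mean of SWEET5 was 9.52 CPM, so its place above 10 CPM rested on that library.

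Pollen markers also led in library 2, but not in the same proportions. The ratio of library 2 to library 3 was above 1 for all 11, with a median of 1.99, and was 1.96 for SWEET5 (95% counting interval 1.495 to 2.59). The ratio of library 1 to library 3 was likewise above 1 for all 11, median 1.56, and was 0.799 for SWEET5 (0.547 to 1.16). Summed, the pollen markers held 749, 1013 and 476 CPM in libraries 1, 2 and 3, with the most in VGD1, a pectin methylesterase of the pollen tube, at 329 ± 110 CPM, and none was at 0. Over all models at 1 CPM or more this ratio of library 2 to library 3 had a median of 0.995. Library 2 was also the deepest. The part of pollen content or depth in the level of SWEET5 was not tested.

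**Figure D2:**
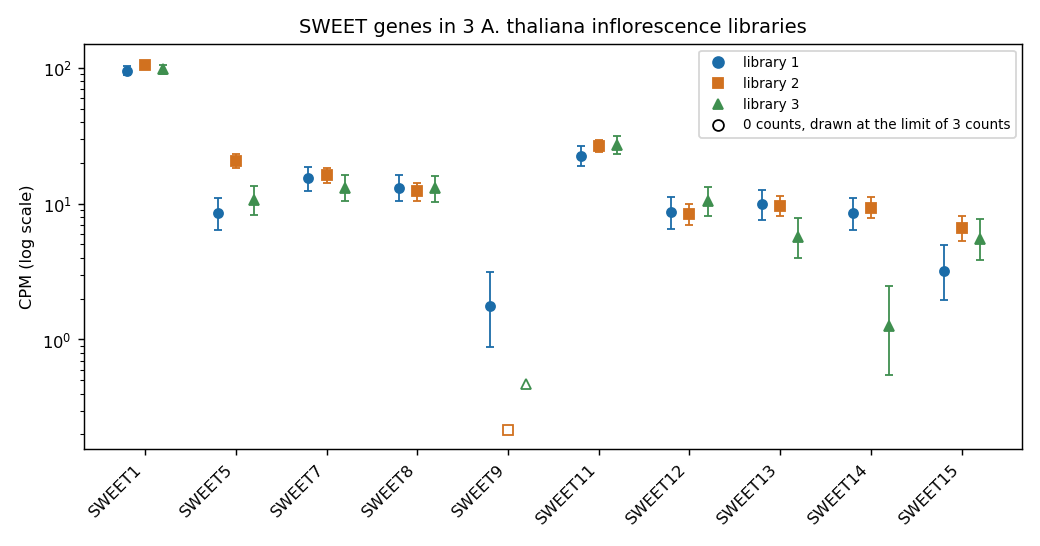
Points give CPM on a log axis for each SWEET gene in libraries 1 (circles), 2 (squares) and 3 (triangles), with exact 95% Poisson intervals; open symbols are 0 counts, drawn at 3 counts. SWEET1 lies near 100 CPM in all 3 libraries, SWEET5 is high in library 2, SWEET14 is low in library 3 (1.26 CPM) and SWEET9 has counts in library 1 alone.

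In clade III, SWEET11 was the most abundant of the 6 genes described. SWEET11 and SWEET12 export sucrose from the phloem parenchyma of leaves to the cells that load it into the phloem, and act in seeds as well. SWEET11 (AT3G48740) lies at chr3:18052466-18054832 and SWEET12 (AT5G23660) at chr5:7971647-7973995, both on the minus strand. SWEET11 stood at 22.4, 26.6 and 27.0 CPM and SWEET12 at 8.62, 8.36 and 10.4 CPM. Both kept their libraries within counting error. Per length, SWEET11 was 2.52, 3.09 and 2.51 times the level of SWEET12 in libraries 1, 2 and 3, and the ranges of the pair (16.1 to 19.5 and 6.21 to 7.75 CPM per kb) did not overlap. Phloem markers were present in every library, with 7 of 8 at 10 CPM or more, a summed level of 381 to 415 CPM and AHA3, a proton pump gene of companion cells, at 144 ± 6.13 CPM. Per length SUC2 had the higher mean, 46.0 ± 4.53 CPM per kb, and AHA3 had 43.1 ± 1.84 CPM per kb.

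SWEET13 and SWEET14, the other close pair, differed between libraries. Both carry sucrose and gibberellin, and plants lacking both have delayed anther dehiscence. SWEET13 (AT5G50800) lies at chr5:20665068-20667312 and SWEET14 (AT4G25010) at chr4:12854385-12856541, both on the minus strand. SWEET13 stood at 9.90, 9.64 and 5.69 CPM. SWEET14 held 53, 131 and 8 counts, which is 8.46, 9.35 and 1.26 CPM. Libraries 1 and 2 were alike for each gene and library 3 was low for both. For SWEET13 the counting interval of library 3 (3.98 to 7.87 CPM) overlapped that of library 1 (7.59 to 12.7 CPM) but not that of library 2 (8.08 to 11.4 CPM). Its ratio of library 1 to library 3 was 1.74 (1.14 to 2.70) and that of library 2 to library 3 was 1.70 (1.17 to 2.52), both clear of 1. SWEET14 was 6.70 times higher in library 1 than in library 3 (95% counting interval 3.16 to 16.3) and 7.40 times higher in library 2 than in library 3 (3.65 to 17.5), and its counting intervals in library 3 and in either other library did not overlap. The mean of SWEET14 was 6.36 ± 4.44 CPM, and 8.91 CPM without library 3. A drop of library 3 below both others as deep as that of SWEET14 was found in 0.322% of models at 1 CPM or more, and one as deep as that of SWEET13, 1.70-fold, in 2.86%. Here too, library, direction and depth were read from the genes themselves. Per length, SWEET13 was 1.18, 1.04 and 4.54 times the level of SWEET14 in libraries 1, 2 and 3.

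Pollen markers were low in library 3 beside SWEET14. All 11 had their lowest level there, as did 35.1% of models at 1 CPM or more, and VGDH1, a relative of VGD1, had 75.2, 97.0 and 28.1 CPM (named after its values were seen). Single genes of sugar movement and flower development did so too. CWINV2, a cell wall invertase that splits sucrose outside the cell and serves anthers, stood at 14.2, 12.996 and 2.05 CPM. STP11, a hexose carrier of pollen tubes, stood at 4.15, 2.86 and 0 CPM, with 0 of 6330211 counts in library 3, which allows up to 0.474 CPM. CWINV2 and STP11 were named after their values were seen. MYB21, a regulator of stamen filaments and nectaries on the nectary list, stood at 24.6, 26.3 and 10.9 CPM. Library 1 stood above library 3 for 10 of 12 STP genes, 4 of 4 CWINV genes and 4 of 5 nectary genes at 1 CPM or more. Library 2 stood above library 3 for as many of each. Among all models at that level these shares were 50.2% and 48.7%. STP9, a glucose carrier of pollen, went otherwise, at 45.8, 61.9 and 58.1 CPM, lowest in library 1. The part of pollen content or of these genes in the low SWEET14 of library 3 was not tested.

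SWEET9 was at the edge of detection. It exports sucrose from nectary cells and is needed for nectar secretion (AT2G39060, chr2:16306491-16308362, minus strand). It had 11 counts in library 1, which is 1.76 CPM with a 95% counting interval of 0.877 to 3.14 CPM, and no count in library 2 or 3. By the limit of 3 counts, no count allows up to 0.214 CPM in library 2 and 0.474 CPM in library 3, for counting error only. The exact 95% intervals ended higher, at 0.263 and 0.583 CPM. The exact 95% interval of the ratio of library 1 to library 2 began at 5.61, and that of library 1 to library 3 at 2.54. Its mean of 0.585 CPM was 0 without library 1 and 0.878 without either of the others. Of all models, 0.0147% had as many counts or more in library 1 with none in the others, a pattern read from SWEET9 itself. The other 3 of these 4 were PR1, GSTF7 and PCR1, named after their values were seen. PR1 is a marker of pathogen responses.

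Nectary list genes were present where SWEET9 was not. All 5 stood at 1 CPM or more, with a summed level of 86.4, 85.5 and 59.1 CPM in libraries 1, 2 and 3 and none at 0. CRC (CRABS CLAW), which is needed to form nectaries and also acts in carpels, had the most CPM of the list at 34.8, 32.5 and 29.1 CPM. CWINV4, an invertase needed for nectar, stood at 40.1, 27.5 and 21.3 CPM, highest in library 1. These genes are also expressed outside nectaries, and how far they track nectaries here was not tested.

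SWEET15, also named SAG29 for its rise in senescing leaves, was the lowest of the 10 apart from SWEET9 (AT5G13170, chr5:4181042-4183354, minus strand). It stood at 3.19, 6.57 and 5.53 CPM, and library 1 lay below library 2 by more than counting error, with a ratio of 0.486 (0.284 to 0.795). Of 8 senescence markers, 4 stood at 10 CPM or more, with a summed level of 185 to 206 CPM and NYC1, an enzyme of chlorophyll breakdown, having the most at 105 ± 6.64 CPM. SAG12, a protease gene that defines leaf senescence, had no count. Of the 7 senescence markers at 1 CPM or more, 4 had their higher level in library 1 and 3 in library 2, and 52.0% of all models at that level were higher in library 1. Their relation to SWEET15 was not tested.

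**Figure D3:**
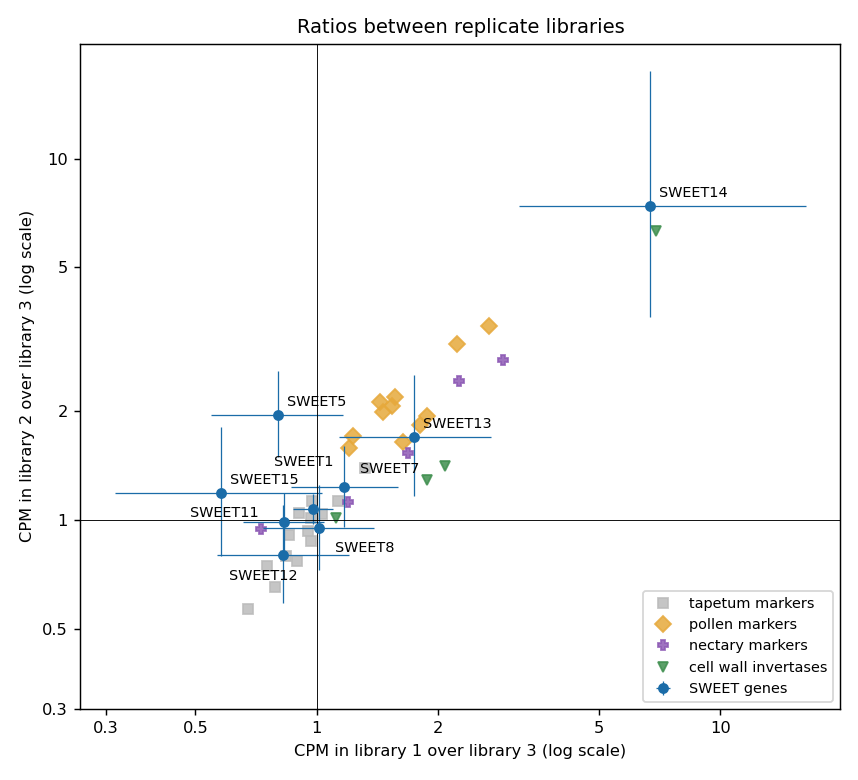
Each point is 1 gene, with CPM in library 1 over library 3 on the x axis and library 2 over library 3 on the y axis, both on log axes; bars on SWEET genes are 95% counting intervals, and marker genes at 1 CPM or more are shown by symbol. SWEET9 is left out because it had no count in library 3. SWEET14 lies far up and right beside 1 cell wall invertase (CWINV2), SWEET5 lies above 1 only on the y axis, and most other SWEET genes lie around 1.

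Taking the genes at 1 CPM or more, 3 of 9 (SWEET5, SWEET14 and SWEET15) had a highest and a lowest library whose 95% counting intervals did not overlap, and 14.4% of models at 1 CPM or more did. Without library 2 only SWEET14 of the 9 did, against 7.37% of models. SWEET9, below that level, also had intervals that did not overlap. The highest library was library 1 for 2 of the 9 (34.9% of models), library 2 for 5 (28.9%) and library 3 for 2 (36.2%). The lowest was library 1 for 4 (32.7% of models), library 2 for 2 (32.2%) and library 3 for 3 (35.1%). Every one of the 10 had a count in at least 1 library, SWEET9 in library 1 alone, and 16.6% of models had none. With 10 genes this does not set them apart from all models. The median coefficient of variation was 12.3% over the 9 genes and 8.55% over all models at 1 CPM or more. The biological coefficient of variation estimated by edgeR for single genes, the variation left after counting error, was 0.462 for SWEET5, 0.319 for SWEET15 and 0.264 for SWEET13, with 0.757%, 2.08% and 3.38% of the 17301 models kept being higher. For SWEET8 and SWEET12 it sat at the lower end of the estimate, 0.00988, which means that no variation beyond counting was seen. For both, 56.2% of the models kept were higher and the rest shared that lower end. The median of all models kept was 0.03025, and the common value fitted to all of them was 0.0699. A trend with level, also fitted by edgeR, gave 0.0974 for SWEET5, 0.132 for SWEET15 and 0.116 for SWEET13. Each of the single-gene values of SWEET5, SWEET15 and SWEET13 rested on 1 library. SWEET5 had 0.0867 without library 2, SWEET15 had 0.00988 without library 1, and SWEET13 had 0.00988 without library 3. With any 1 library left out, the median of all models kept was 0.00988 as well, so that value is common with 2 libraries. The filter on low counts removed SWEET9 and SWEET14, the latter through its own low library 3. With no filter they had the highest values of the 10, 4.70 for SWEET9 and 0.875 for SWEET14, and SWEET14 had 0.00988 without library 3.

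Per length, the order of mean levels was SWEET1, SWEET11, SWEET7, SWEET8, SWEET5, SWEET12, SWEET13, SWEET14, SWEET15 and SWEET9. The first step down was the widest, with SWEET1 at 77.9 to 84.9 CPM per kb over the libraries and SWEET11 at 16.1 to 19.5. SWEET11 in turn lay clear of SWEET7 at 10.8 to 13.3. From SWEET7 to SWEET15 the range of each gene overlapped that of its neighbour, so ranges did not put neighbours there in order. Within libraries, SWEET5 lay above SWEET12 and SWEET13 above SWEET14 in all 3, and the other neighbours there changed order. Some genes farther apart had separate ranges: SWEET7 and SWEET8 each lay clear of SWEET12, SWEET13, SWEET14 and SWEET15. SWEET5 and SWEET12 lay clear of SWEET15. SWEET15, at 2.36 to 4.86 CPM per kb, lay clear of SWEET9 at 0 to 1.39. In all, 3 of 9 neighbour steps and 33 of 45 pairs had ranges that did not overlap. Without library 3, in which SWEET14 was low, 7 of 9 neighbour steps did not overlap, and SWEET13 and SWEET14 stood above SWEET12. Without library 1, SWEET15 stood above SWEET14.

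The 10 genes did not include the next SWEET genes of the inflorescence. SWEET10, a clade III gene of the shoot apex that responds to flowering signals, stood at 84.1, 85.2 and 79.8 CPM, or 63.3 ± 2.19 CPM per kb. SWEET17, a fructose carrier of the vacuole membrane, stood at 47.1, 49.4 and 57.5 CPM, or 39.9 ± 4.25 CPM per kb. In each library, SWEET1 lay above SWEET10, SWEET10 above SWEET17 and SWEET17 above SWEET11, and their ranges per length did not overlap. SWEET10 lies 7066 bases from SWEET13 on chromosome 5, and its level per length was far above that of SWEET13, 6.63 ± 1.86 CPM per kb. SWEET3, SWEET4 and SWEET2 stood at 17.6 ± 1.61, 12.3 ± 1.75 and 10.97 ± 0.729 CPM. SWEET16, the close relative of SWEET17, had 1 count in all 3 libraries, and SWEET6 had none, which allows up to 0.113 CPM over the 3 libraries together.

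**Figure D4:**
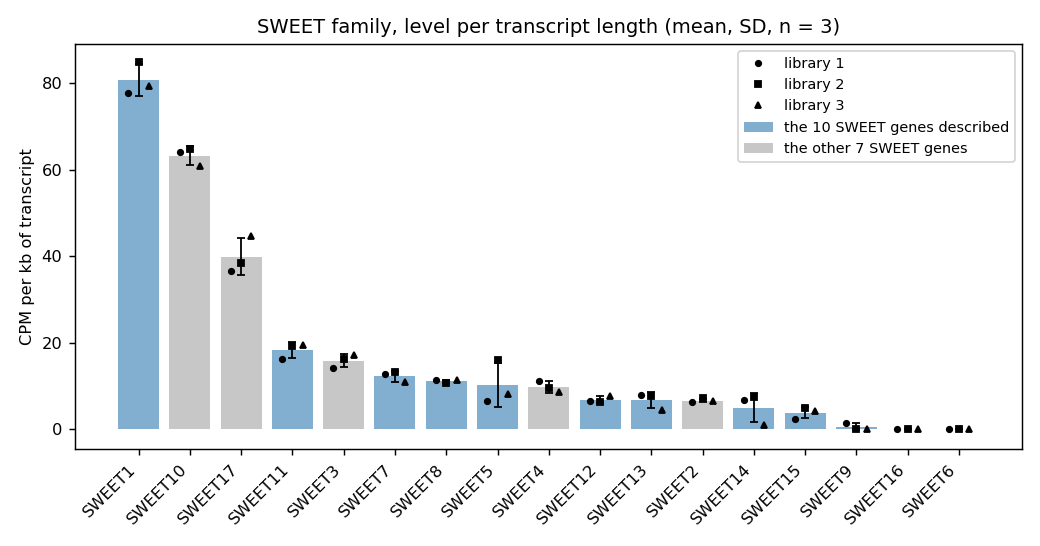
Bars give the mean CPM per kb of transcript with SD over 3 libraries for all 17 SWEET genes, in blue for the 10 genes described and in grey for the other 7; points are the single libraries. SWEET1 (80.7), SWEET10 (63.3) and SWEET17 (39.9) stand above the rest, which lie under 20 CPM per kb.

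By clade, the summed level of the genes described was 80.7 ± 3.69 CPM per kb for SWEET1 of clade I, 33.5 ± 5.49 for the 3 genes of clade II and 40.9 ± 4.198 for the 6 genes of clade III. With SWEET10 added, clade III would rise by 63.3 CPM per kb, more than its other 6 genes held together. The other clades also have genes outside the 10. Clade I would rise by 15.8 CPM per kb with SWEET3 and by 6.58 with SWEET2. Clade II would rise by 9.72 CPM per kb with SWEET4 and by 0 with SWEET6. These sums of the genes described thus do not rank the clades. The most abundant SWEET genes were thus of different clades, I, III and IV.

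Other genes of sugar movement were read for scale. The 9 SUC genes are listed by name as sucrose carriers driven by protons, and 4 of them stood at 10 CPM or more. Whether each makes a working carrier was not tested. SUC2, which loads the phloem, reached 46.0 ± 4.53 CPM per kb and SUC1, active in pollen, 41.6 ± 9.66 CPM per kb, while SUC9 had 1 count and SUC6, SUC7 and SUC8 none. These last 3 resemble one another closely, so their counts are uncertain if shared reads were discarded. Of the 14 STP genes, which import hexoses, 7 stood at 10 CPM or more, led by STP1 at 30.2 ± 5.45 and STP9, a glucose carrier of pollen, at 28.8 ± 4.38 CPM per kb, and STP8 had 3 counts. SWEET1 thus stood above every SUC and STP gene listed, each compared per length.

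Genes listed by name as enzymes that make or split sucrose spanned the same range. All 4 sucrose-phosphate synthase genes, for sucrose synthesis, stood at 10 CPM or more, from SPS3F at 4.25 ± 0.247 CPM per kb to SPS4F at 21.6 ± 1.98 and SPS1F at 62.7 ± 3.63 CPM per kb. Of 6 genes named as cell wall invertases 2 did, CWINV3 at 20.2 ± 1.21 and CWINV4 at 12.3 ± 3.97 CPM per kb. CWINV6 had 1 count. The list follows gene names, and whether each of these enzymes splits sucrose was not tested. Of 6 sucrose synthase genes 2 did, SUS1 at 22.4 ± 2.74 and SUS6 at 3.81 ± 0.639 CPM per kb, with SUS4 lowest at 0.113 ± 0.0592 CPM per kb. Median levels in CPM per kb were 8.47 for the 10 SWEET genes, 0.237 for SUC, 4.25 for STP and 3.33 for CWINV. They were 2.03 for the sucrose synthases and 13.1 for the sucrose-phosphate synthases, beside 5.89 for all models. Between libraries, the ratio of library 1 to library 3 was above 1 for all 4 CWINV genes at 1 CPM or more, median 1.98. This ratio was above 1 for 4 of the 9 SWEET genes, median 0.981. It was above 1 for 50.2% of all models at that level, so the count of SWEET genes lay near that of all models.

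**Figure D5:**
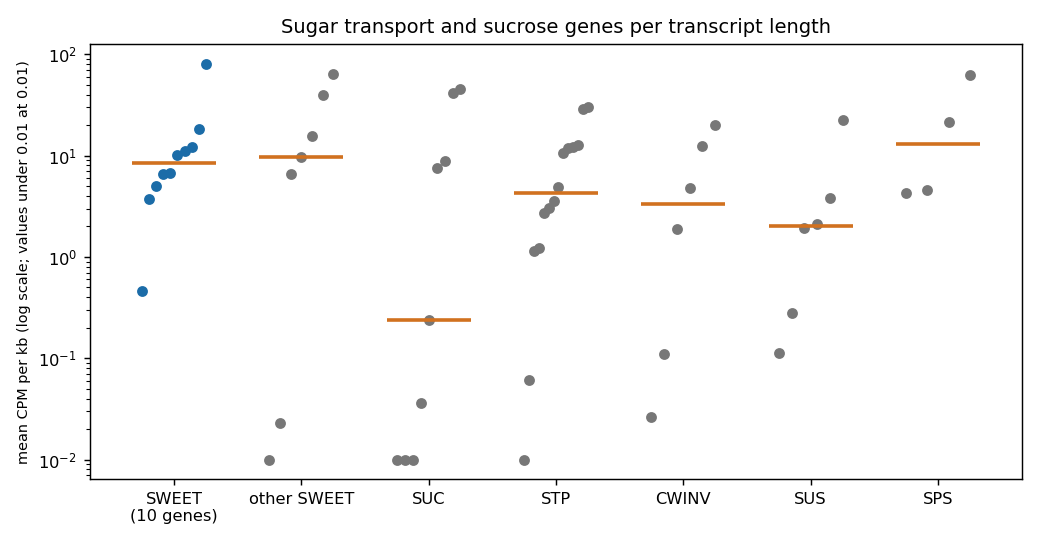
Each point is the mean CPM per kb of 1 gene over 3 libraries, on a log axis. Lists are the SWEET genes described, the other SWEET genes, genes named as sucrose carriers (SUC) and hexose importers (STP). The others are genes named as cell wall invertases (CWINV), sucrose synthases (SUS) and sucrose-phosphate synthases (SPS). Orange lines are medians, and values under 0.01 are drawn at 0.01. The highest SWEET gene (80.7) lies above every gene of the other families, and the lists overlap over most of their range.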

How the data were processed

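Directional RNA-seq libraries of total RNA were counted per gene model, and the raw counts were used as the authors deposited them. The submitters' processing notes name TAIR10. Aligner, counter, read length and strand setting: not given in the sources used here. Positions, lengths and sequences came from RefSeq's TAIR10.1 genome and annotation, which gave a length for 26665 of 27176 models. CPM was computed from raw library totals, and CPM per kb from the annotated length of the counted model. Counting intervals are exact 95% Poisson intervals, and those of ratios are exact conditional binomial intervals. A count of 0 was given a limit of 3 counts, which is below the upper end of its exact 95% interval. Both cover counting error only, since reads without molecular identifiers are not independent molecules. No library repeats another: chi-square per model between pairs was 2.46 to 3.58, above sampling noise.

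Biological variation was estimated with edgeR 4.0.16 in R 4.3.3 (TMM, filterByExpr, intercept only, prior degrees of freedom 0). With 1 group no test between conditions was made and no p-value is given. Interval overlap and edgeR's estimate were tested on simulated data, where edgeR's estimate came out below the variation put in. Proteins were compared by global alignment in Biopython 1.88, after translation of the TAIR10.1 coding sequences in place of a RefSeq protein table, and the shared stretch was found from a MAFFT 7.526 alignment. Python 3.11.15, numpy 2.4.6, pandas 2.3.3, scipy 1.17.1 and matplotlib 3.10.9 were used. The SWEET genes, gene lists and marker lists were chosen with earlier results of these data known, and support nothing beyond description. Of 123 list entries, all were measured. Those whose symbol the annotation does not hold were kept by locus. Named genes were set to be all SWEET genes, the highest 2 and the lowest detected gene of each sugar list per length, and the highest gene of each marker list. MYB21, VGDH1, SAG12, PR1, GSTF7, PCR1, CWINV2, STP11, SUC6, SUC7 and SUC8 fall outside that rule and were chosen after their values were seen. Genes alike in pattern were not sought, since 3 replicates of 1 group give no pattern.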

Additional observations from a re-analysis of the deposited data

How the results depend on the processing

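TMM or RLE scaling in place of raw totals kept the summed level of the 10 SWEET genes at 195 CPM, and moved the mean of none of the 10 by as much as 1 SD. No model exceeded 1% of counts, so leaving such models out changed nothing. Leaving out each library moved the sum between 185 and 200.02 CPM and the number of genes at 10 CPM or more between 4 and 5. It moved the number of genes whose libraries differed beyond counting error between 1 (without library 2) and 3. Without library 1 the 3 were SWEET5, SWEET13 and SWEET14, with SWEET13 in place of SWEET15. The neighbour steps with ranges that did not overlap moved between 4 and 7 (without library 3). With coding length in place of transcript length there were 4 such steps. With 99% intervals, 2 of 9 genes differed, SWEET5 and SWEET14, beside 6.74% of models. With no filter on low counts it was 4 of 10, beside 10.05% of models. That share counts the 16.6% of models with no counts, whose intervals could not be apart in this way. The mean of SWEET9 falls to 0 without library 1. No paired analysis was possible because the values come from 1 group and from no test. With so few libraries the spread of each gene is itself poorly known, and genes under 10 CPM rest on 0 to 135 counts a library.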
